A study of Mus musculus with 2 samples.

Results

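The genes followed here in whole-layer mouse skin were chosen by name because they are known to respond when skeletal muscle loses its nerve supply or wastes: Trim63, Fbxo32, Runx1, Gadd45a, Hdac4, Cdkn1a, Foxo1, Foxo3 and Ncam1. All 9 are among the 24421 gene symbols of the count table. The back skin came from wild type C57BL6/J mice, which the methods describe as 8-week-old females with hair in telogen. One library was made from skin stretched for 5 days at 33% strain with a device glued to the back, where the methods give the strain as an initial value that was raised daily, and 1 library from non-stretched skin at day 5. The study's hair growth experiment used a control that carried no device and, apart from it, a group under no strain. Whether the non-stretched skin carried a device, and whether a library came from 1 mouse or from a pool, is not given in the sources used here. The counts summed to 14152379 in non-stretched skin and 11648655 in stretched skin.

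Whole-layer back skin of the mouse includes the panniculus carnosus, a thin sheet of striated muscle under the dermis. When a muscle is denervated, the histone deacetylase HDAC4 accumulates, represses DACH2 and thereby releases myogenin, a transcription factor that drives fetal acetylcholine receptor subunits and the ubiquitin ligases MuRF1 (Trim63) and atrogin-1 (Fbxo32). The FOXO factors activate the same ligases when growth signals through AKT are low. RUNX1, GADD45A, p21 (Cdkn1a) and the adhesion molecule NCAM, which spreads over the surface of denervated fibres, are also induced in such muscle.

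The upstream sequence of Trim63 is shown because this ligase is the textbook target of FOXO factors and myogenin, and that of Foxo3 because this gene had the lowest ratio of the 9. The RefSeq table used here gave 9 start windows for 7 of the genes, and windows of Fbxo32 and Ncam1 were not analysed here. Each line gives the 250 bases before the start on GRCm38.p6, written 5′ to 3′ on the strand of the gene. Trim63 is on the plus strand at chr4:134314870-134315119, and Foxo3 on the minus strand at chr10:42276696-42276945. Capitals mark a FOXO core (GTAAACA), an E-box of the form CAGCTG, the core letters TATAAA of the box that positions transcription, or a GC box with the letters GGGCGG. Each was searched on both strands, and no marked matches overlap one another.
Trim63: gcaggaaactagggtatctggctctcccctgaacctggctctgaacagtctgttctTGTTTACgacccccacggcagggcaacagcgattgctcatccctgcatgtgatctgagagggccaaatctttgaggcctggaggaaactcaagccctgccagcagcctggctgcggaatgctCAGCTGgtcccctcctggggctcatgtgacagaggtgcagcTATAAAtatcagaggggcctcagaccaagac
Foxo3: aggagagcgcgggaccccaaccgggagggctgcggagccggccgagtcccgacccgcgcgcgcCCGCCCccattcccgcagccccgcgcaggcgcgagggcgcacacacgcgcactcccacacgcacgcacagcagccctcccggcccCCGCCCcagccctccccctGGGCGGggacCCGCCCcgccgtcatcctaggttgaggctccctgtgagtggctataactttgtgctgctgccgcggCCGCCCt
The Trim63 window held the FOXO core as its reverse complement TGTTTAC, beginning 194 bases before the start, the E-box at 72 bases and TATAAA at 31 bases. No other window of these genes held any of those 3 motifs, which occur in 3.17%, 13.0% and 12.4% of all 32851 windows. The Foxo3 window held 5 GC boxes and no other marked motif. GC boxes were found in 5 of the 9 windows, against 32.7% of all windows. A RUNX site (TGTGGT) and an ATF4 and C/EBP core (TGATGCAA) were in none of the 9, against 14.05% and 0.792% of all windows. These matches are letters in a window and were not tested as sites.

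The libraries were compared to ask which of these genes differed between stretched and non-stretched skin. Among the 9 genes, only Ncam1 passed a fold rule adapted from the methods, with a 3.67-fold higher level in stretched skin, and none passed it downward. With a threshold of 100 in place of 10 for the product in this rule, Ncam1 was not called either. The rule asks for a product of both FPKM values (counts per kilobase of exon, scaled to the total of the library) above 10 and a ratio of at least 2 or at most 0.5, with 1 added to each FPKM value here, which the methods do not state. Of the 10910 genes with such a product, 2.61% were called higher and 2.44% lower. Of the 9 genes, 8 had such a product, and Hdac4 did not. Without the added 1, the product of Runx1 and of Foxo3 also fell short, which left 6 genes, and the calls of the 9 were the same. The 3.67-fold value of Ncam1 is without the added 1, and with it the log2 ratio was 1.52. On CPM (the count scaled to the total of the library, without length), the counting interval lay above 0 on the log2 scale for 3 genes, Ncam1, Gadd45a and Runx1. It lay below 0 for 4 genes, Foxo3, Fbxo32, Foxo1 and Hdac4, and included 0 for Trim63 and Cdkn1a. Over all 16255 genes above 3 counts in at least 1 library, the interval lay above 0 for 18.1%, below 0 for 33.5% and across 0 for 48.3%. The median log2 ratio was 0.05 for the 9 genes and -0.12 for all measured genes. The intervals are exact 95% Clopper-Pearson intervals and cover counting error only. With 1 library per condition no difference has a replicate check, and fewer cells of a type cannot be told apart from less RNA per cell.

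**Figure D1:**
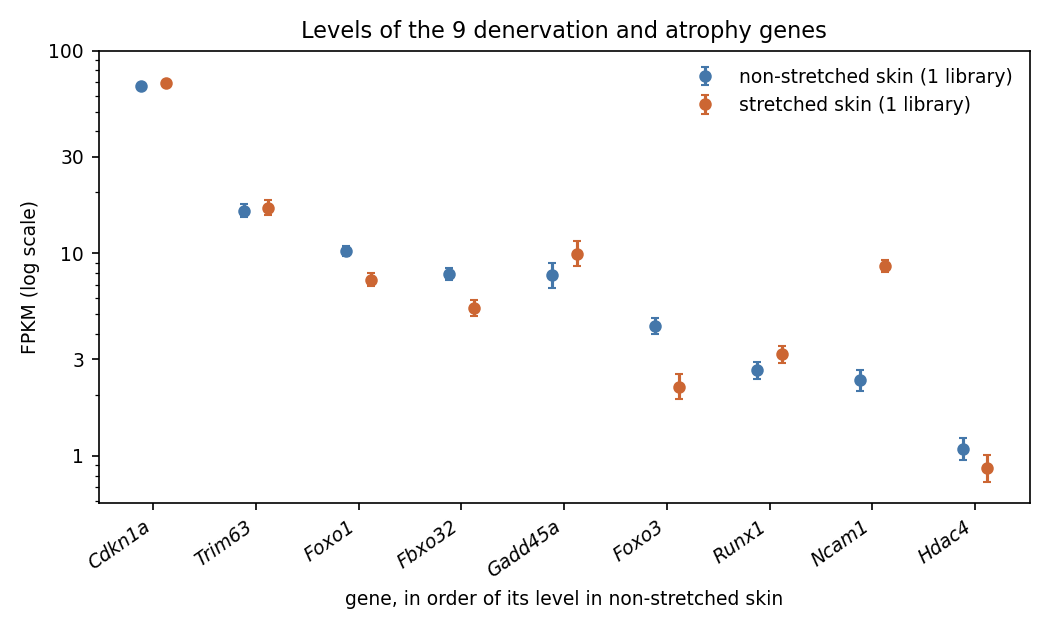
FPKM (log axis) of the 9 genes in the library of non-stretched skin (blue) and of stretched skin (orange), with exact 95% Poisson intervals. Cdkn1a stood highest in both libraries and Hdac4 lowest, and Ncam1 moved from 2.37 to 8.68 FPKM.

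Per length of exon, Cdkn1a had the highest level of the 9 genes, 66.7 FPKM in non-stretched and 69.5 FPKM in stretched skin. Trim63 came next at 16.3 and 16.8 FPKM. In non-stretched skin Foxo1 (10.3 FPKM), Fbxo32 (7.91), Gadd45a (7.81), Foxo3 (4.40), Runx1 (2.64), Ncam1 (2.37) and Hdac4 (1.09) followed. The exact 95% Poisson intervals of Fbxo32 and Gadd45a overlapped, as did those of Runx1 and Ncam1, and those of the other neighbours in this order did not. In stretched skin the order after Trim63 was Gadd45a (9.98 FPKM), Ncam1 (8.68), Foxo1 (7.41), Fbxo32 (5.38), Runx1 (3.17), Foxo3 (2.20) and Hdac4 (0.869), and only the intervals of Gadd45a and Ncam1 overlapped among neighbours.

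The ratios of both ubiquitin ligases of atrophy lay apart. MuRF1 is a RING finger ligase that marks myosin and other thick filament proteins for the proteasome. Its gene Trim63 (ENSMUSG00000028834.13, chromosome 4 of mm10 from 134315120 to 134329629, plus strand) had 654 counts in non-stretched and 556 in stretched skin. The log2 ratio was 0.05 (interval -0.12 to 0.21), which spans ratios of 0.921 to 1.16. Atrogin-1 is the F-box subunit of an SCF ligase. Its gene Fbxo32 (chromosome 15 from 58175879 to 58214932, minus strand) had 781 counts and then 437, a log2 ratio of -0.56 (interval -0.73 to -0.39), or 68.0% of the non-stretched level. Within a library, which no scaling affects, the count of Trim63 was 0.837 of that of Fbxo32 in non-stretched and 1.27 in stretched skin. The ratio of these ratios was 1.52 (exact conditional 95% interval 1.29 to 1.79). The other MuRF genes also went both ways. Trim55 (MuRF2) had 127 and 182 counts (0.80, interval 0.47 to 1.14), whereas Trim54 (MuRF3), 26.6% of whose exonic bases lie in an antisense gene, had 717 and 454 (-0.38, interval -0.55 to -0.21).

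Both FOXO genes were lower in stretched skin. FOXO1 and FOXO3 are forkhead factors that AKT keeps out of the nucleus, so the level of a transcript and the activity of its protein can differ. Foxo3 (chromosome 10 from 42181841 to 42276755, minus strand) had 471 counts in non-stretched and 194 in stretched skin, a log2 ratio of -0.999 (interval -1.25 to -0.75). Only 5.51% of all measured genes had a lower ratio, yet Foxo3 was not called. With 1 added to each FPKM its log2 ratio was -0.75, and without it both the product and the ratio of 0.5004 missed the rule. Foxo1 (chromosome 3 from 52268336 to 52353221, plus strand) had 1262 counts and then 748 (-0.47, interval -0.61 to -0.34). The ratio of Foxo1 to Foxo3 counts was 2.68 in non-stretched and 3.86 in stretched skin, a ratio of ratios of 1.44 (interval 1.19 to 1.75). The remaining genes of the family had intervals below 0 as well, with Foxo6 at -0.70 and Foxo4 at -0.20, though with TMM scaling Foxo4 stood at -0.10 and its interval included 0. Adipocytes and endothelium also express FOXO genes. The adipocyte list was lower (median -0.68, 8 of 8 genes measured with intervals below 0, 1862 and 1207 CPM), and the endothelial list was mixed (median 0.40, 8 of 8 measured, with 4 intervals above, 1 below and 3 across 0, 253 and 330 CPM). No gene of either list was at 0. The part of these cells in the FOXO values was not tested.

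The regulators of the denervation program went both ways. HDAC4 is the class IIa deacetylase at the head of the path to myogenin. Hdac4 (chromosome 1 from 91928779 to 92195699, minus strand) had 243 counts in non-stretched and 160 in stretched skin (-0.32, interval -0.62 to -0.03). With TMM scaling the value was -0.22 and the interval included 0 (-0.52 to 0.07), and 22.4% of its exonic bases lie in the antisense gene Gm26720. Hdac5 stood at -0.21, or at -0.10 with an interval that reached 0 under median of ratios, whereas Hdac7 (0.63) and Hdac9 (0.72) were higher, and Hdac9, which encodes a deacetylase abundant in muscle, had 81 and 110 counts. RUNX1 is a transcription factor of blood and hair follicle that denervated fibres switch on. Runx1 (chromosome 16 from 92601466 to 92826149, minus strand) had 450 counts and then 444 in the smaller library, a log2 ratio of 0.26 (interval 0.07 to 0.45). Its partner Cbfb stood at -0.14, or at -0.04 with an interval that included 0 under TMM scaling, and the ratio of Runx1 to Cbfb counts went from 0.313 to 0.414. Runx2 stood at 0.32 and Runx3 at -0.37, both with intervals that included 0, and under TMM scaling Runx2 stood at 0.42 with an interval above 0.

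Of the growth arrest genes, Gadd45a had an interval above 0 and Cdkn1a did not. GADD45A is a nuclear stress protein that denervation and fasting induce in muscle. Gadd45a (chromosome 6 from 67035096 to 67037457, minus strand) had 195 counts and then 205 (0.35, interval 0.06 to 0.64), and 19.1% of its exonic bases lie in the antisense gene E230016M11Rik. Gadd45b stood at -0.03, or 0.08 with TMM scaling, and Gadd45g at -0.35 with an interval below 0. The cyclin-dependent kinase inhibitor p21 is a p53 target in many cells besides muscle. Its gene Cdkn1a (chromosome 17 from 29090976 to 29100727, plus strand) had 3352 and 2877 counts, a log2 ratio of 0.06 (interval -0.01 to 0.13), which became 0.16 with an interval above 0 (0.09 to 0.24) with TMM scaling. Cdkn1b, which encodes p27, was lower at -0.45, and Cdkn1c, 30.6% of whose exonic bases lie in an antisense gene, stood at 0.02.

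Ncam1 stood apart from the other genes. NCAM is found on myoblasts, satellite cells, denervated fibres, Schwann cells and the dermal papilla, and is concentrated at the synapse in adult innervated fibres. Ncam1 (ENSMUSG00000039542.16, chromosome 9 from 49502136 to 49798925, minus strand) had 290 counts in non-stretched skin and 876 in stretched skin. The log2 ratio was 1.88 (interval 1.68 to 2.07), above those of 98.5% of all measured genes. The polysialyltransferase genes St8sia2, with 39 and 60 counts (0.90, interval 0.30 to 1.52), and St8sia4, with 86 and 125 (0.82, interval 0.41 to 1.23), whose enzymes add polysialic acid to NCAM, were higher too. Both were low, at 0.512 and 0.957 FPKM for St8sia2 and 0.303 and 0.534 FPKM for St8sia4, and neither had a product above 10. Ncam2 had 2 and 7 counts, too few to measure a difference (interval -0.30 to 5.39). The Schwann cell list had a median of 0.14 over 10 of 10 measured genes, summed levels of 532 and 547 CPM, and none of its markers at 0. Dermal papilla genes had a median of -0.77 (8 of 8, 214 and 127 CPM, none at 0). Satellite cell genes had a median of 0.87 (5 of 6 measured, 89.5 and 172 CPM, of which Itga7 gave 71.2 and 130). Cdh15 stood at 1.41, and Pax7, at 21 and 15 counts, at -0.20 with an interval that included 0. The part of these cells in the Ncam1 value was not tested.

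**Figure D2:**
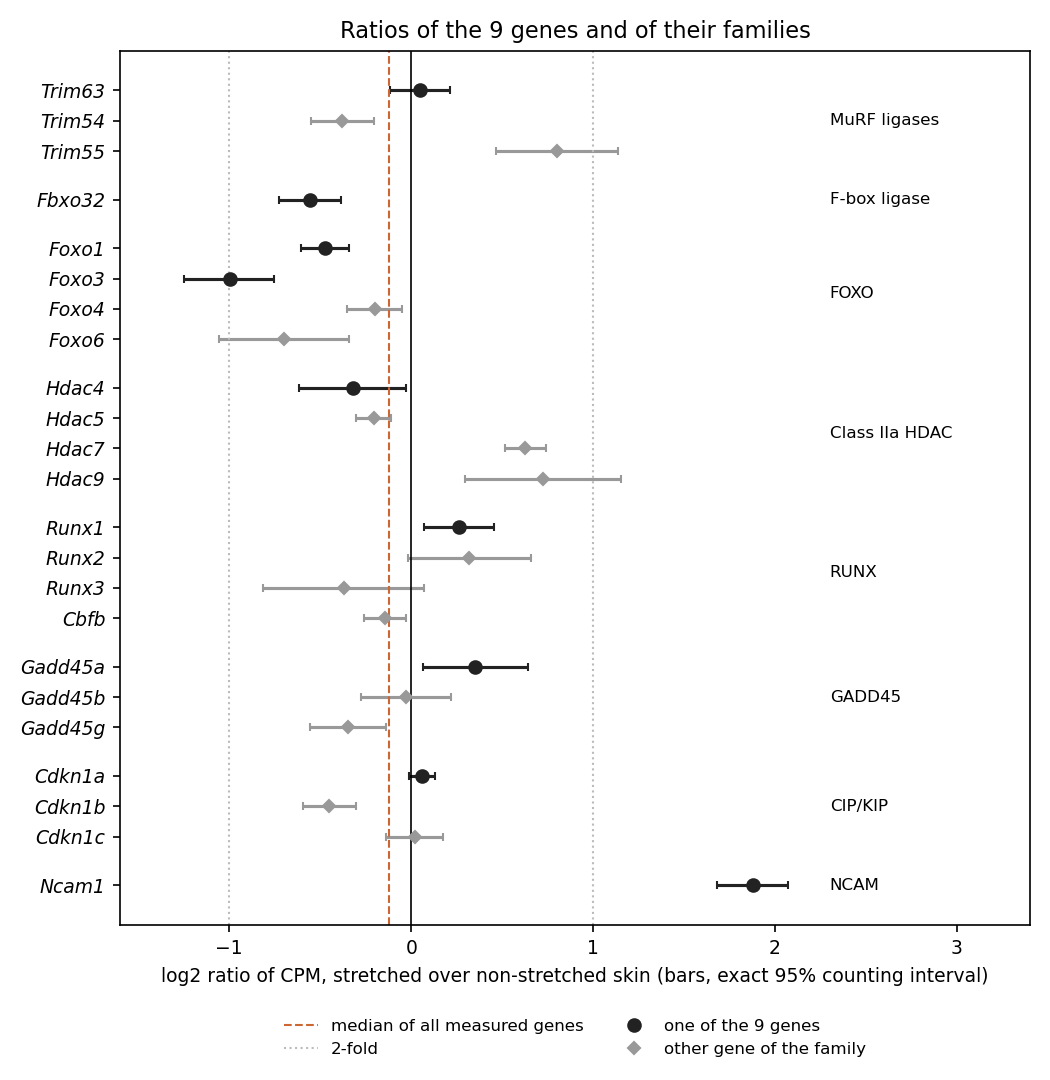
Log2 ratio of CPM in stretched over non-stretched skin for the 9 genes (black circles) and the other genes of their families (grey diamonds), with exact 95% counting intervals. Ncam1 at 1.88 lies past the 2-fold line, all 4 FOXO genes lie below 0, and the intervals of Trim63 and Cdkn1a include 0.

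Levels were also set against muscle, since whole skin holds other tissues. The 20 skeletal muscle genes were all measured and none was at 0. They summed to 42373 CPM in non-stretched and 31901 CPM in stretched skin, with a median log2 ratio of -0.33. They were far from uniform, from Myh4, the fast IIB myosin, at -4.57 to Myh2, the IIA myosin, at 1.46. Relative to the muscle median, Trim63 was 0.37 higher on the log2 scale (interval 0.21 to 0.54), Cdkn1a 0.39, Runx1 0.59, Gadd45a 0.68 and Ncam1 2.20 higher, all with intervals above 0. Hdac4 was level with the muscle genes (0.00, interval -0.29 to 0.30). Foxo3 remained lower by this measure (-0.67, interval -0.92 to -0.43), as did Fbxo32 (-0.23, interval -0.40 to -0.06) and Foxo1 (-0.15, interval -0.28 to -0.02). Against the summed muscle counts the last 2 were at -0.15 and -0.06, with intervals that included 0. The intervals treat the muscle value as fixed, and which cells the reads came from is not known. Leukocytes also express Runx1 and Cdkn1a, and their genes had a median of 1.24 (11 of 12 measured, 721 and 1667 CPM, with Cd79a at or under 3 counts in both libraries). Genes of hair follicle and epidermis had a median of -0.33 (12 of 12, 16297 and 16590 CPM, none at 0), with 4 intervals above, 7 below and 1 across 0. All 12 had a product of FPKM values above 10, and 4 were called lower, against 2.44% of all such genes. The called genes were Msx2 (-2.09), Lef1 (-1.80), Krt75 (-1.53) and Shh (-1.27). Krt10 (0.02) and Krt5 (0.01), keratin genes with the highest CPM of the list, were near level. Fibroblast genes had a median of 0.30 (8 of 8, all with intervals above 0, 42066 and 78466 CPM, none at 0). The part of these cells in the values was not tested.

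**Figure D3:**
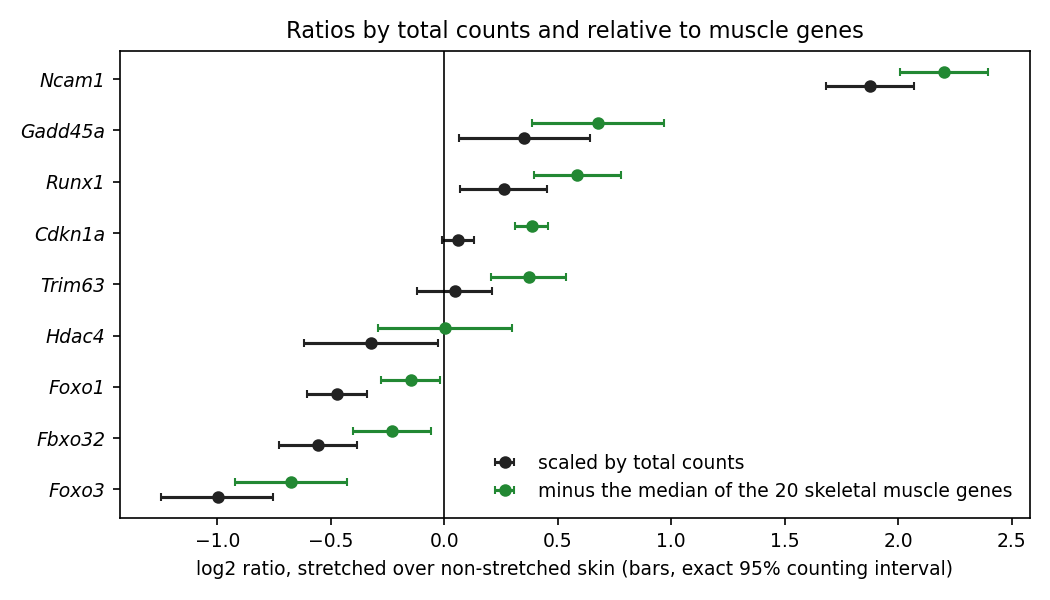
Log2 ratio of each of the 9 genes scaled by total counts (black) and after subtracting the median of the 20 skeletal muscle genes (green), with exact 95% counting intervals. Ncam1 lies highest on both scales and Foxo3 lowest, and Trim63 and Cdkn1a move from 0.05 and 0.06 to 0.37 and 0.39.

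The partners of the 9 genes in the same paths were measured as lists, with calls to be read against the 2.61% and 2.44% of all genes. Of 12 genes around HDAC4, DACH2 and myogenin, 11 were measured, with a median log2 ratio of 0.49, and 2 of the 9 that passed the product filter were called higher. Myog, the gene of myogenin, had 174 counts and then 447 (1.64, interval 1.39 to 1.90), and Myod1 112 and then 217 (1.24, interval 0.90 to 1.58). Dach2, the repressor between HDAC4 and myogenin, had 2 and 1 counts, too few to measure. The related Dach1 had 181 and 61 (-1.29, interval -1.73 to -0.86), and the kinase gene Camk2a stood at -0.28.

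A list of other denervation-responsive genes, which holds acetylcholine receptor subunits and ion channels together with developmental myosins, Ankrd1, Nnmt and Gdf5, had the highest median of the lists. It was 2.17 over 15 genes, or 1.42 with 1 CPM added to both values, with 12 intervals above 0. Of the 8 genes that passed the product filter, 4 were called higher, Chrna1, Ankrd1, Myh3 and Myh8. The values of Myh3 (6.58) and Myh8 were known when the list was made, and without them the median was 1.93, with 2 of 6 genes called. All lists were chosen with earlier results of these data known, so leaving out these genes does not free the median from that choice. Ankrd1, which encodes an ankyrin repeat protein of the sarcomere, had 423 counts and then 1964 (interval 2.34 to 2.65). Chrng, the fetal gamma subunit of the acetylcholine receptor, had 4 counts in non-stretched and 231 in stretched skin (6.13, interval 4.76 to 8.02). Chrna1, the alpha subunit, had 119 and then 461 (2.23, interval 1.94 to 2.54). The adult epsilon subunit Chrne had 21 and 22 counts, too few at this depth to detect a difference (0.35, interval -0.58 to 1.28). Scn4a, the sodium channel of innervated adult muscle, was lower (-0.94, interval -1.12 to -0.77), and Nnmt stood at 0.17 with an interval that included 0. Trim63 and Fbxo32, at 0.05 and -0.56, lay below Myog and Chrng in the same libraries, and the difference between these groups of genes was not tested. The satellite cell genes, whose cells also express Myod1 and Myog when activated, summed to 89.5 and 172 CPM in the same libraries. Itga7 alone gave 71.2 and 130 CPM of these sums. The intervals of Cdh15 (1.41), Vcam1 (1.15) and Itga7 (0.87) lay above 0, and those of Pax7 (-0.20) and Myf5 (0.50) included 0. Calcr was at or under 3 counts in both libraries. The part of satellite cells in these values was not tested.

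The effector lists stayed near the median of all genes. The 15 other ligases and deubiquitinases had a median of -0.08, all 15 passed the filter, and 0 were called. Beside Trim55, Asb2 was higher (0.29), while Fbxo40, a muscle F-box gene, and Fbxo31 were lower at -0.94 and -0.47. The 24 targets of FOXO and ATF4 in atrophy and autophagy had a median of 0.02, and 0 of the 22 that passed the filter were called. Klf15, a glucocorticoid-responsive factor, and Pdk4, a kinase that restrains pyruvate oxidation, were lowest at -0.88 and -0.80. Trib3 (0.60) and Map1lc3a (0.38), which encodes an LC3 protein of autophagosomes, were highest. The 18 p53 targets, which share regulation with Cdkn1a and Gadd45a, had a median of -0.20 with 0 of 18 called, from Tigar (-0.73) and Trp53inp1 (-0.58) to Eda2r (0.57) and Bbc3 (0.68).

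The lists of growth signals that oppose or drive atrophy each held 1 called gene, of 14 and 11 that passed the filter. Among 14 genes of the IGF1 and AKT arm (median -0.13), Igf2, a fetal growth factor, had 471 counts and then 2093 (2.43, interval 2.29 to 2.58), but 64.5% of its exonic bases lie in other genes. Akt1 stood at 0.22, Pik3r1 at -0.31 and Gsk3b at -0.40. Among 13 genes of the myostatin and activin arm (median -0.25), Mstn, the gene of the growth inhibitor myostatin, had 514 counts in non-stretched and 52 in stretched skin (-3.02, interval -3.46 to -2.61). Smad7, an inhibitor of the same path, was lower (-0.96). Fst and Fstl3, whose proteins bind myostatin and activins, stood at 0.26 and 0.24, and 47.3% of the exonic bases of Fstl3 lie in the antisense gene Prss57.

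**Figure D4:**
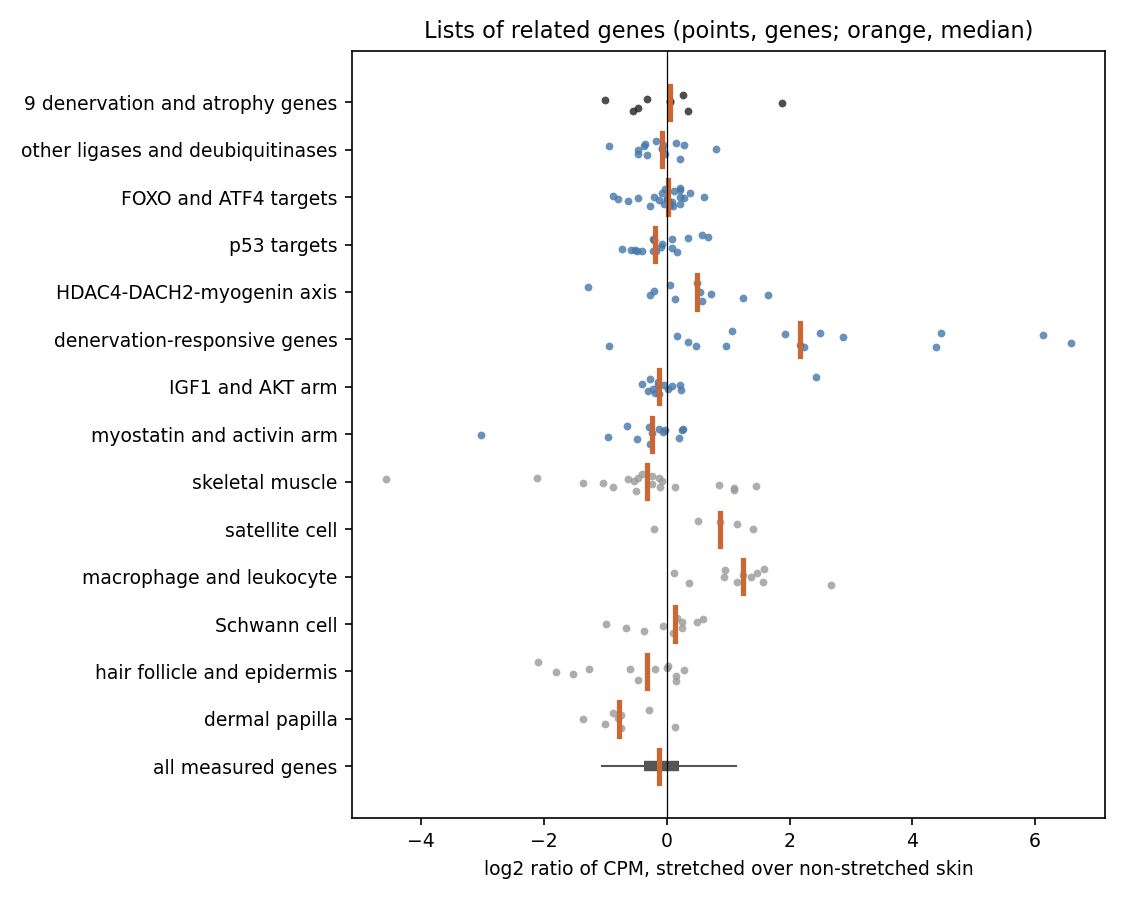
Log2 ratio of CPM for each measured gene of 14 lists (points) with the list median (orange), and for all measured genes the 5th to 95th percentile (line), the quartiles (bar) and the median. The denervation-responsive genes reach from -0.94 to 6.58 around a median of 2.17, while the 9 genes reach from -0.999 to 1.88 around 0.05.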

How the data were processed

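Total RNA of whole-layer skin was sequenced in 1 library per condition. After quality filtering by the FASTX-Toolkit, TopHat2 placed the reads on mm10, and the authors deposited raw counts of reads per gene symbol. The counting program, its gene models and its use of strand are not given in the sources used here, so reads of a gene and its antisense partner cannot be told apart. Lengths and coordinates came from GENCODE M21 on mm10, with exons joined per gene (23376 symbols matched by name, 650 by synonym, 395 without a length). CPM and FPKM used the total count of each library. Counts below 3 were raised to 3 in ratios. Scaling alternatives were TMM and upper quartile (edgeR 4.0.16), median of ratios (DESeq2 1.42.0) and totals without the 50 most counted genes. Calls and intervals were tested on simulated counts that varied by counting error only, so that test cannot speak to variation between animals. The shares of exons in other genes count both strands.

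The 9 genes and all lists were chosen with earlier results of these data known. Genes named are the 9, their families, and from each pathway list the 2 highest and the 2 lowest with at least 20 counts, plus Myog, Dach2, Chrna1 and Chrng. Chrne, Ankrd1, Myh2, Myh4, Myh8, Cdh15, Pax7, Cd79a and the pairs whose count ratios are given were chosen after their values were seen. Python 3.11.15, scipy 1.17.1 and R 4.3.3 were used.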

Additional observations from a re-analysis of the deposited data

How the results depend on the processing

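Each other scaling moved all log2 ratios by a constant, which was 0.10 for TMM, 0.11 for median of ratios, 0.10 for upper quartile and 0.06 for totals without the 50 most counted genes. Under each of the 4, the interval of Hdac4 included 0 and that of Cdkn1a lay above 0, which made 4 intervals above and 3 below 0. The median of the HDAC4, DACH2 and myogenin genes was 0.60, 0.61 and 0.60 for the first 3 of these, and 0.32 with 1 CPM added and no filter. With 1 CPM added, that of the denervation-responsive list was 1.42 against 2.17, a move of over 1.5 times but within the interval of its middle gene. The median of the skeletal muscle genes was -0.22, -0.21, -0.22 and -0.26 in the order of the shifts. An EV threshold of 100, where EV is the product of the FPKM values with 1 added to each, left 0 of the 9 genes called higher, since Ncam1 no longer passed it, with 137 genes higher and 130 lower in all. With CPM in place of FPKM, 454 and 442 of all genes were called against 285 and 266, and Ncam1 was again the only one of the 9. No paired analysis was possible because each condition has a single library, so leaving one out was not possible either. Of the other values of these counts and medians, 74 stayed within 1.5 times or within the counting interval of the middle gene. Of those of single genes and smaller lists, 211 stayed within their interval and 13 moved, for Cdkn1a, Hdac5 and the fibroblast, satellite and Schwann cell lists. Depth limits genes with few counts, Chrne, Ncam2, Dach2, Pax7, Myf5 and Calcr among those named.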
